A study of Mus musculus with 6 samples.

Results

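The genes described here are the 19 Wnt ligands, the 10 Frizzled receptors, the coreceptors Lrp5 and Lrp6, 10 secreted antagonists (Sfrp1, Sfrp2, Sfrp4, Sfrp5, Frzb, Wif1 and Dkk1 to Dkk4) and the feedback gene Axin2. They were taken by symbol and make 42 of the 23057 genes in the table. RNA came from brains of C57BL/6 mice. The 3 irradiated mice received a single X-ray dose of 10 Gy to the head through a collimator with a 10.08 mm field, and the 3 mock mice were mock-irradiated. Brains were taken 30 days later from mice perfused with saline. No genetic change, transgene or drug is named for either group, and the labels give neither age nor sex. The labels call the tissue whole brain, each library is named as 1 of 3 replicates of its group, and p-values measure the spread between these libraries.

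Wnt proteins are lipid-modified secreted ligands that bind Frizzled receptors at the cell surface. With Lrp5 or Lrp6 as coreceptor, the signal stops the degradation of beta-catenin, which then drives target genes such as Axin2 together with TCF and LEF factors. Secreted Frizzled-related proteins (Sfrp1 to Sfrp5 and Frzb) and Wif1 bind the ligands themselves, while Dkk1 binds the Lrp coreceptors. In brain, Wnt7a and Wnt7b made by neural cells act on endothelial cells through Reck and Adgra2 to build and keep the blood-brain barrier, and Wnt7a is also made by granule neurons of the cerebellum, where it shapes synapses.

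Levels are in FPKM (fragment number divided by transcript length and by the mapped total), a scale on which levels can be compared between genes. Sequencing is labelled as about 30 to 40 M reads a library, and each library had 14362 to 14583 genes at 0.5 FPKM or more. Neuronal markers were present throughout, with 5 genes summing to 1900.4 to 2393 FPKM in mock and 1968 to 2395 FPKM in irradiated libraries. The 15 cerebellar markers summed to 1214 to 1683 FPKM in mock but to 132 to 148 FPKM in irradiated libraries, and all 15 fell. Gabra6 of cerebellar granule cells was listed at 0 in irradiated 2. The 10 hippocampal markers summed to 23.1 to 39.6 FPKM in mock and 139.7 to 219.7 FPKM in irradiated libraries, and 8 of them rose. The 8 telencephalic markers summed to 29.2 to 81.8 FPKM in mock and 135 to 291 FPKM in irradiated libraries, and 3 of them rose. They were lowest in mock 2, with a median of -2.19 on the log2 scale relative to the mean of the 6 libraries. The medians were -0.26 and -0.17 in the other mock libraries and 0.55, 0.84 and 1.49 in irradiated 1, 2 and 3. The 7 markers of olfactory bulb output neurons did not follow the groups: their medians were 1.32, -1.62 and 1.27 in mock 1, 2 and 3 and 1.45, -1.31 and -1.25 in irradiated 1, 2 and 3. Among cell types, 3 of 7 markers listed for oligodendrocyte precursors fell, namely Gpr17, Neu4 and Enpp6. Bcas1 and Sox10 were lower without being called. Pdgfra and Cspg4 overlapped between the groups and were not called (log2 change -0.66 and 0.05, adjusted p = 0.27 and 0.93 by limma). The list summed to 166 to 199 FPKM in mock and 87.2 to 128 FPKM after irradiation, mostly Bcas1 (109 to 145 FPKM in mock). Of 7 markers of mature oligodendrocytes 2 fell (5130.5 to 6205 and 2406 to 4233 FPKM). Of 9 astrocyte markers 2 fell (1804 to 2032 and 1258 to 1514 FPKM), while Slc1a2, Aldh1l1 and Gfap had positive changes that were not called. Of 12 choroid plexus markers only Kcne2 was called, as lower. All 12 had negative log2 changes, from -0.17 (Folr1) to -1.56 (Kcne2). The sums, mostly Ttr, overlapped (957 to 2205 and 812 to 1054 FPKM). On the log2 scale, the middle choroid plexus gene stood at 0.61, -0.16 and 0.70 for mock 1, 2 and 3. Irradiated 1, 2 and 3 all stood lower, at -0.53, -0.33 and -0.19, with irradiated 3 close to mock 2. Of 7 microglial markers 2 rose (54.3 to 74.5 and 82.4 to 107 FPKM). Over all 14585 tested genes, 7.72% were called by limma at an adjusted p under 0.05. Region markers thus differed between the groups, and the effects of regional makeup and of irradiation cannot be told apart for the genes below. In bulk RNA, fewer cells of a type and less RNA per cell cannot be told apart either. The marker lists were drawn up with earlier results of these data known, so their counts are not independent of the data.

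Of the 42 genes, 30 averaged 0.5 FPKM or more across the 6 libraries and were tested. The irradiated libraries had more RNA of Wnt2, Wnt4, Wnt7b and Fzd2 and less of Wnt7a, Fzd7 and Sfrp1, so ligands and receptors moved in both directions. These 4 genes rose and 3 fell by limma at an adjusted p under 0.05, on log2(FPKM + 0.5). That is 7 of 30, or 23.3%, against 7.72% of all 14585 tested genes (3.48% higher and 4.24% lower). Wnt2, among the 7, met the filter only through the irradiated libraries. With a filter of 1 FPKM, which left it out, 6 of 28 were called, while over all 13457 genes then tested 452 rose and 550 fell. In 15 of the 30 the libraries of the groups did not overlap (6 higher and 9 lower after irradiation), against 31.5% of all tested genes (13.7% higher and 17.7% lower). By role, 3 of 11 tested ligands rose and 1 fell, 1 of 9 Frizzleds rose and 1 fell, and 1 of 7 antagonists fell. Median log2 changes were 0.23 for the ligands and -0.45 for the Frizzleds. The median log2 change was -0.17 over the 30 genes and -0.02 over all tested genes, and the median size of the change was 0.54 and 0.28. Leaving out mock 2 and irradiated 1 together, the 2 libraries that stood apart on marker lists, gave 4 higher and 4 lower of 33 tested. Over all 14603 genes then tested, 620 rose and 672 fell. In the libraries left, olfactory bulb markers also differed between the groups (medians 1.32 and 1.27 in mock, -1.31 and -1.25 in irradiated libraries). There, bulb makeup and irradiation cannot be told apart. The count depended on single libraries: 2 higher and 0 lower without mock 1, 2 and 1 without mock 2, 1 and 0 without irradiated 3, and with library weights 5 and 5. Over all tested genes the same settings gave, in this order, 187 and 254, 205 and 298, 147 and 260, and 863 and 976.

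**Figure D1:**
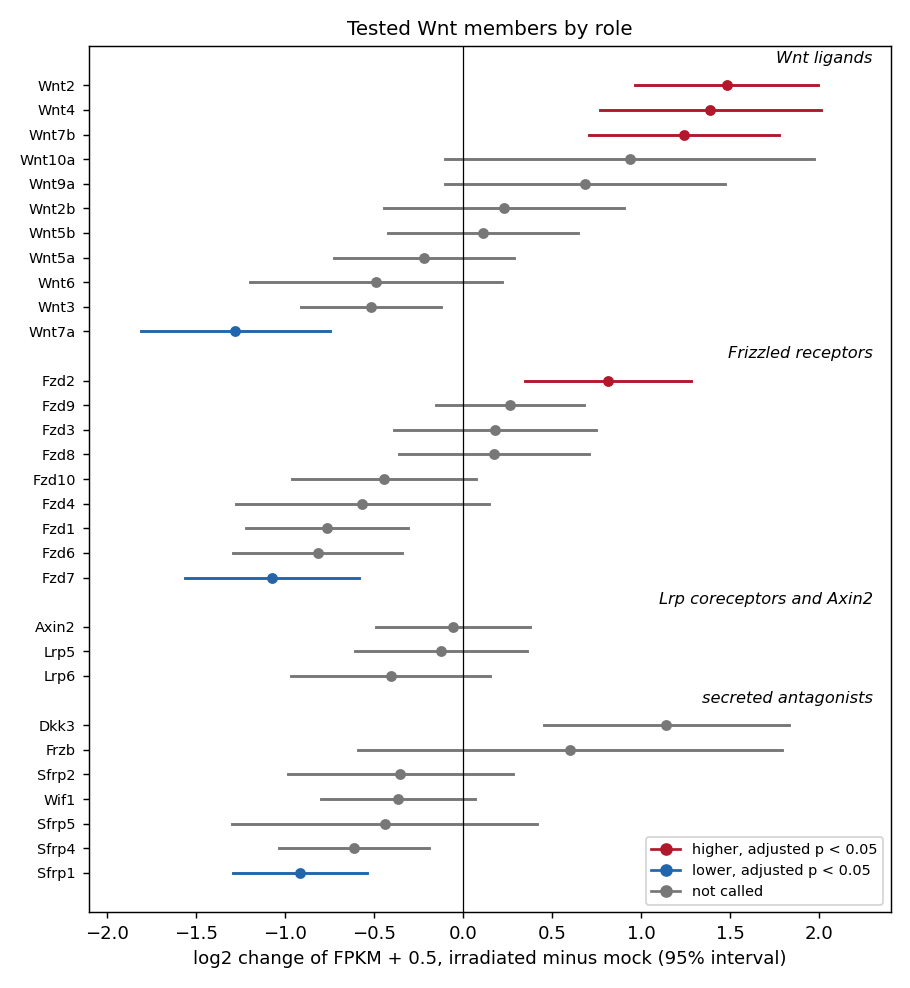
The log2 change of FPKM + 0.5, irradiated minus mock, on the x axis for each of the 30 tested genes, grouped by role on the y axis. Points are limma estimates and lines their 95% intervals. Red marks the 4 genes that rose, blue the 3 that fell and grey the rest, which lie on both sides of 0 among the ligands, the receptors and the antagonists.

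**Figure D2:**
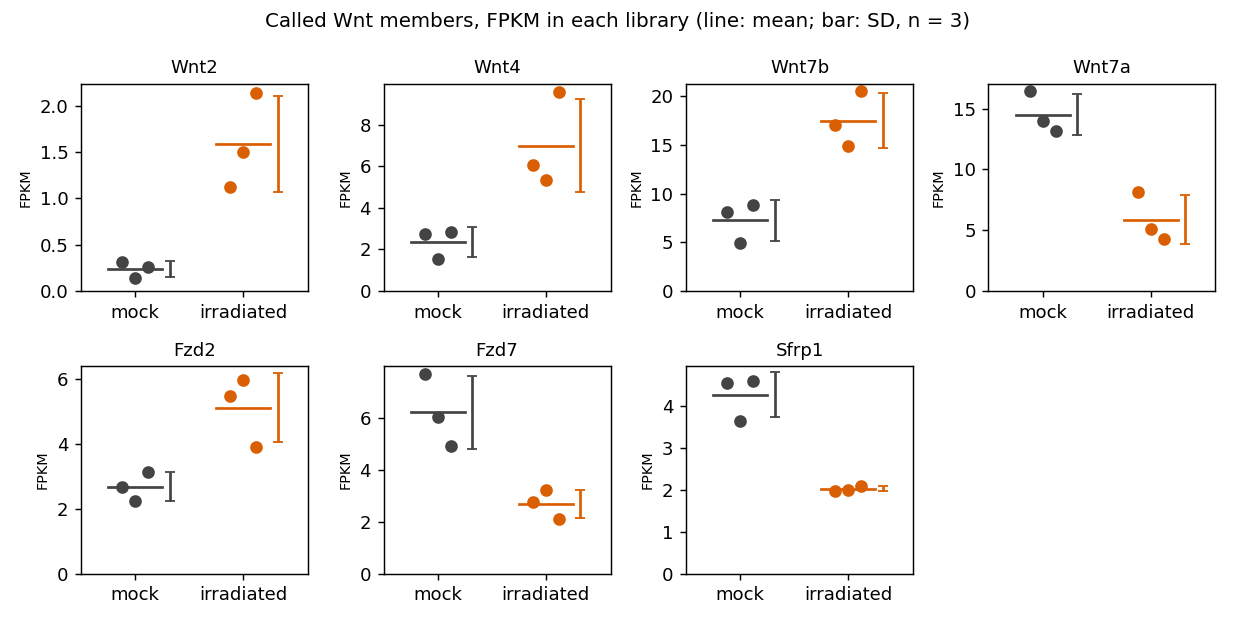
FPKM in each library for the 7 genes that passed the test, with mock libraries in grey and irradiated libraries in orange. The line is the mean and the bar beside it the SD (n = 3). No irradiated point lies within the mock range in any of the 7 panels.

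The promoters of 28 of the 42 genes were in the RefSeq table of GRCm38.p6, and those of Wnt2, Wnt4, Wnt7a and Fzd7 are shown because these genes changed, with the first of the 2 windows of Wnt11 for its motif match. Each line gives the 250 bases before the annotated start, read 5′ to 3′ on the strand of the gene, and capitals mark a match to TCAAAG or its reverse complement CTTTGA, the core that TCF and LEF factors recognise.
Wnt2 (chr6:18030446-18030695, minus strand): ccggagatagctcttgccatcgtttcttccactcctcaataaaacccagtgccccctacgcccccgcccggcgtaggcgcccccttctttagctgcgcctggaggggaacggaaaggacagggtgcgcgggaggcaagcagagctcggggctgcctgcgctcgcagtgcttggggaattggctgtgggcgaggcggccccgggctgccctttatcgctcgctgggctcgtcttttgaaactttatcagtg
Wnt4 (chr4:137277385-137277634, plus strand): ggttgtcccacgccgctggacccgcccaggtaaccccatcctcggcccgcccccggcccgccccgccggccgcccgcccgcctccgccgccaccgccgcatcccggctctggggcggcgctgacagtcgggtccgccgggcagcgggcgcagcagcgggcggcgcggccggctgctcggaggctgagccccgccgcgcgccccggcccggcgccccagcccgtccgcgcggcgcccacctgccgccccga
Wnt7a (chr6:91411354-91411603, minus strand): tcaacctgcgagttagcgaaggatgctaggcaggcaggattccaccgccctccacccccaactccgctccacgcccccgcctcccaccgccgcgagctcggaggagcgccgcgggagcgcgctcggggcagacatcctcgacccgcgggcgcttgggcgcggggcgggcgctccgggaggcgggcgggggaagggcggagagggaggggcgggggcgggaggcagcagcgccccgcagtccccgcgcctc
Fzd7 (chr1:59481897-59482146, plus strand): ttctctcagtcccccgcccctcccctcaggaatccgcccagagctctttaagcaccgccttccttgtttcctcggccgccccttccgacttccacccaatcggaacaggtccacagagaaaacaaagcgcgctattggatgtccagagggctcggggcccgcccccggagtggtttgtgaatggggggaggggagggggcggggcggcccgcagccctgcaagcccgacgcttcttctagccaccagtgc
Wnt11 (chr7:98834862-98835111, plus strand): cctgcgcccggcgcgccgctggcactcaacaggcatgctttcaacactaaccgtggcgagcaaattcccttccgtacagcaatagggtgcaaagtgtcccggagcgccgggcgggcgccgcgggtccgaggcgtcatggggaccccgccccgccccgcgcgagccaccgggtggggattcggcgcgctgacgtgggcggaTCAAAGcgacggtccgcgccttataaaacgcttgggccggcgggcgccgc

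All 5 are rich in G and C. Over the 300-base window that runs to 50 bases past the start, GC content was 84.3% in Wnt4, 76.0% in Wnt7a, 71.3% in Wnt11, 66.7% in Fzd7 and 65.7% in Wnt2. The median over the 31 windows of the 28 genes was 66.7%, with 26.0 CG pairs, against 52.7% and 7.0 CG pairs over all 32851 windows. On both strands, CTTTGA was found in 5 of the 28 genes (Dkk1, Frzb, Fzd1, Wnt5b and Wnt11), or 17.9%, against 18.2% of all 27025 genes with a window. The longer CTTTGAT, which contains CTTTGA, was found in Wnt5b and Wnt11, or 7.14%, against 4.29%. In Wnt11 the match begins 50 bases before the start. Wnt2, Wnt4, Wnt7a and Fzd7 held neither string in their windows. The Wnt2 window lies inside the gene span given below, so its start is not the outermost one of the gene. For Fzd7, the bases after the start were not found in a GENCODE transcript of the gene.

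Among the ligands, Wnt7a and Wnt7b moved in opposite directions. Wnt7a (GRCm38.p6 chromosome 6, 91363981 to 91411353, minus strand) was at 16.4, 14.0 and 13.2 FPKM in mock 1, 2 and 3 and at 8.18, 5.12 and 4.31 FPKM in irradiated 1, 2 and 3. Every irradiated library lay below every mock library. The mock mean was 2.47 times the irradiated mean, and the log2 change was -1.28 (SE 0.23, adjusted p = 0.016 by limma). Its near relative Wnt7b (chromosome 15, 85535437 to 85581821, minus strand) was at 8.08, 4.90 and 8.83 FPKM in the 3 mock libraries, compared with 17.0, 14.9 and 20.5 FPKM after irradiation. Here the irradiated libraries were all above the mock ones, with a mean 2.41 times as high, and the log2 change was 1.24 (SE 0.23, adjusted p = 0.019 by limma). Wnt7a did not pass without mock 1, mock 2 or irradiated 3 (adjusted p = 0.068, 0.051 and 0.056 by limma), and Wnt7b did not pass without irradiated 3 (0.075).

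The ratio of Wnt7a to Wnt7b ran 2.03, 2.85 and 1.49 over the mock brains and 0.48, 0.34 and 0.21 over the irradiated ones. Wnt7a was thus the more abundant of the pair in each mock library and the less abundant in each irradiated library. Their summed level was 24.5, 18.9 and 22.0 FPKM without irradiation and 25.2, 20.1 and 24.9 FPKM with it, and the groups overlapped. The sum and the ratio were formed after the values were seen and were not tested. The antisense gene AU022754 shares exon sequence with Wnt7b on the opposite strand. It was listed at 0.236, 0.0568 and 0.195 FPKM across the mock brains, against 0.538, 0.441 and 0.672 FPKM across the irradiated brains. The libraries are stranded, but whether strand was used in counting is not given, so reads of the 2 genes may have been mixed. In the same libraries the cerebellar markers fell and the hippocampal markers rose, as given above. Their part in the change of the pair was not tested.

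**Figure D3:**
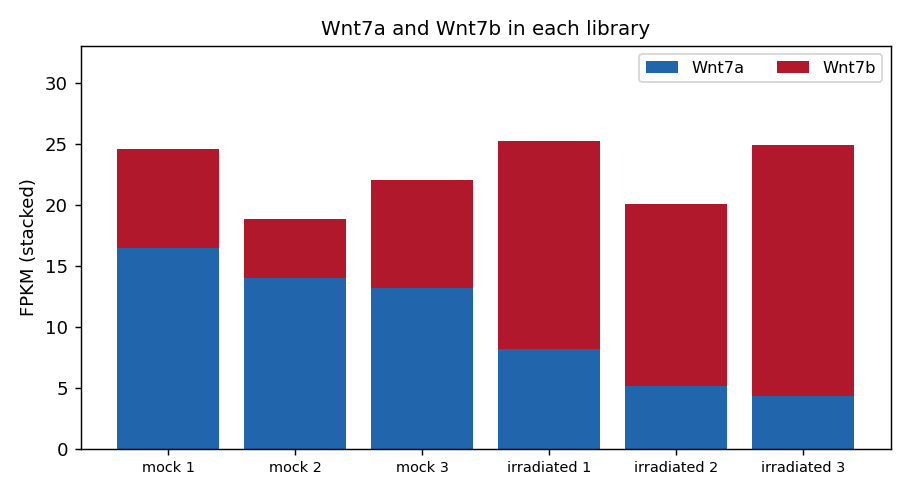
FPKM of Wnt7a (blue) and Wnt7b (red) stacked for each of the 6 libraries, so that the height is their sum. The sum lies between 18.9 and 25.2 FPKM in all libraries, while the larger segment is Wnt7a in the 3 mock libraries and Wnt7b in the 3 irradiated ones.

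Wnt4 and Wnt2 rose. Wnt4, a ligand best known from kidney and gonad development (chromosome 4, 137277635 to 137299501, plus strand), was at 2.74, 1.51 and 2.82 FPKM in the 3 mock libraries, compared with 6.06, 5.36 and 9.58 FPKM after irradiation. The lowest irradiated value was above the highest mock value, with a log2 change of 1.39 (SE 0.27, adjusted p = 0.021 by limma). Without mock 1, mock 2 or irradiated 3 the adjusted p was 0.052, 0.062 and 0.070. Wnt2 (chromosome 6, 17985474 to 18032772, minus strand) was at 0.313, 0.140 and 0.256 FPKM without irradiation and 1.12, 1.5 and 2.14 FPKM with it. Its mean was 6.71 times as high after irradiation, and its log2 change was 1.48 (SE 0.23, adjusted p = 0.0071 by limma). Wnt2 reached the filter of 0.5 FPKM through the irradiated libraries, so its being among the tested genes is not independent of its direction. It passed in all 15 alternatives in which it was tested, with a log2 change from 1.05 to 2.32, and was left out with a filter of 1 FPKM.

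Wnt3 and Wnt10a were separated between the groups without passing the test. Wnt3, which Purkinje cells of the cerebellum make, was at 4.79, 5.17 and 4.13 FPKM across the mock brains, against 2.74, 3.55 and 3.12 FPKM across the irradiated brains. Each irradiated value was below each mock value, with a log2 change of -0.52 (95% interval -0.91 to -0.12, adjusted p = 0.10 by limma). Wnt10a was at 3.39, 0.657 and 3.50 FPKM in the 3 mock libraries, compared with 3.67, 3.99 and 6.22 FPKM after irradiation. Mock 2, the library lowest in telencephalic markers, stood far below the other 2 mock libraries, and the log2 change of 0.94 (adjusted p = 0.24 by limma) was 0.35 without it. Wnt9a was lowest in mock 2 as well, at 0.794 FPKM against 2.60 and 1.70 FPKM, and overlapped the irradiated libraries at 1.85 to 3.82 FPKM (log2 change 0.69, adjusted p = 0.25 by limma).

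Wnt5a and Wnt5b, ligands known mostly for signals that do not use beta-catenin, had log2 changes of -0.22 (95% interval -0.73 to 0.29) and 0.11 (-0.42 to 0.64). Wnt2b had one of 0.23 (-0.44 to 0.91). Wnt6 had one of -0.49 (adjusted p = 0.36 by limma), with 2.69, 1.17 and 3.20 FPKM without irradiation and 1.94, 1.29 and 1.14 FPKM with it. Without mock 2 and irradiated 1 together it was -1.01 (adjusted p = 0.022 by limma), a comparison in which olfactory bulb markers also differed between the groups. By mean level the order of ligands in mock was Wnt7a at 14.5 ± 1.71, Wnt7b at 7.27 ± 2.09 and Wnt3 at 4.70 ± 0.53 FPKM (SD, n = 3), of which Wnt7b and Wnt3 overlapped. They were followed by Wnt5a, Wnt10a, Wnt4 and Wnt6 between 2.35 and 2.67 FPKM, which did not differ beyond their spread. After irradiation the order was Wnt7b at 17.5 ± 2.82, Wnt4 at 7.0 ± 2.26, Wnt7a at 5.87 ± 2.04 and Wnt10a at 4.63 ± 1.39 FPKM (SD, n = 3), where neighbours from Wnt4 on overlapped. All 19 ligands summed to 49.5, 34.4 and 46.3 FPKM across the mock brains, against 49.7, 47.6 and 58.3 FPKM across the irradiated brains, so the totals overlapped.

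The other 8 ligands were below the filter. Wnt11 was at 0.708, 0.556 and 0.792 FPKM in the 3 mock libraries, compared with 0.141, 0.234 and 0.338 FPKM after irradiation, all below the mock range. When no filter was used, over 19679 genes, it fell with a log2 change of -0.69 (SE 0.13, adjusted p = 0.039 by limma). Wnt1, a ligand of the midbrain-hindbrain boundary in the embryo, was at 0.0890, 0.0317 and 0.153 FPKM without irradiation and 0.225, 0.368 and 0.347 FPKM with it, above the mock range but with limma adjusted p = 0.063 without a filter. Wnt8b, Wnt9b, Wnt10b and Wnt16 overlapped between the groups and had adjusted p from 0.38 to 0.94 without a filter. Wnt3a was listed above 0 in mock 1 alone, at 0.0253 FPKM, and Wnt8a was listed at 0 in all 6 libraries.

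Among the receptors, Fzd2 rose while its close relative Fzd7 fell. Fzd2 (chromosome 11, 102604431 to 102608058, plus strand) was at 2.68, 2.24 and 3.14 FPKM across the mock brains, against 5.49, 5.98 and 3.92 FPKM across the irradiated brains. The groups did not overlap and the log2 change was 0.81 (SE 0.20), but the limma adjusted p of 0.048 was close to the threshold. It did not pass when any 1 of the 6 libraries was left out (adjusted p from 0.055 without irradiated 3 to 0.15 without mock 2), nor with the replicate block (0.11). Fzd7 (chromosome 1, 59482147 to 59486955, plus strand) was at 7.71, 6.06 and 4.92 FPKM in the 3 mock libraries, compared with 2.75, 3.21 and 2.11 FPKM after irradiation. Every irradiated library was below the mock range, with a log2 change of -1.07 (SE 0.21, adjusted p = 0.023 by limma). Without mock 1, mock 2 or irradiated 3 the adjusted p was 0.089, 0.070 and 0.089.

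Fzd1, the third member of the same subfamily, had the highest mean of the Frizzleds in both groups. It was at 10.5, 12 and 8.86 FPKM without irradiation and 5.88, 7.38 and 4.76 FPKM with it. Its irradiated values all lay below mock, with a log2 change of -0.76 (95% interval -1.22 to -0.31, adjusted p = 0.055 by limma), and it passed without irradiated 2 (0.046). Fzd6, a receptor used in planar polarity, was at 3.13, 2.45 and 2.04 FPKM across the mock brains, against 0.973, 1.53 and 1.17 FPKM across the irradiated brains. It missed the threshold narrowly, with a log2 change of -0.82 (95% interval -1.29 to -0.34, adjusted p = 0.0501 by limma), and passed with a pseudocount of 1 (0.048), robust empirical Bayes (0.048) and library weights (0.036). As a share of all Frizzled FPKM, Fzd2 took 6.73%, 6.43% and 9.66% in the mock brains and 19.8%, 17.3% and 15.1% after irradiation. The share of Fzd7 was 19.4%, 17.4% and 15.1% in the mock brains and 9.91%, 9.30% and 8.10% after irradiation. Shares of both genes were separated between the groups, and they were not tested.

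Fzd4, the receptor for norrin on vascular endothelium, was at 2.34, 2.4 and 2.39 FPKM in the 3 mock libraries, compared with 0.628, 2.11 and 2.00 FPKM after irradiation. Irradiated 1 was far below the other 5 libraries. The log2 change was -0.56 (adjusted p = 0.29 by limma) and -0.17 without irradiated 1. The 12 endothelial markers were also lowest there, with a median of -0.78 on the log2 scale against 0.11 and -0.03 in the other irradiated libraries. Long transcripts were low in the same library: the 1999 tested genes with a longest transcript over 6000 nt had a median of -0.39 in irradiated 1 and from 0.002 to 0.24 in the other 5. The longest Fzd4 transcript has 6720 nt. The part of either in the low Fzd4 value was not tested.

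Fzd3, Fzd8, Fzd9 and Fzd10 overlapped between the groups, with log2 changes of 0.18, 0.17, 0.26 and -0.45 and limma adjusted p from 0.25 to 0.67. Fzd5 did not reach the filter and was listed at 0.491, 0.266 and 0.403 FPKM without irradiation and 0.146, 0.343 and 0.194 FPKM with it. The 10 receptors together summed to 39.8, 34.8 and 32.5 FPKM across the mock brains, against 27.8, 34.5 and 26.0 FPKM across the irradiated brains, which overlap. After irradiation the means of Fzd1 at 6.01 ± 1.31, Fzd9 at 5.59 ± 0.83 and Fzd2 at 5.13 ± 1.07 FPKM (SD, n = 3) did not differ beyond their spread.

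The coreceptors did not pass the test. Lrp5 was at 4.47, 3.19 and 5.14 FPKM in the 3 mock libraries, compared with 3.14, 4.31 and 4.09 FPKM after irradiation (log2 change -0.12, 95% interval -0.60 to 0.36, adjusted p = 0.74 by limma). Lrp6 was at 6.21, 4.6 and 4.29 FPKM without irradiation and 2.49, 4.78 and 3.98 FPKM with it (log2 change -0.40, 95% interval -0.96 to 0.15, adjusted p = 0.33 by limma). Irradiated 1 was lowest for both genes, whose longest transcripts have 8893 and 9368 nt.

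Of the secreted antagonists, Sfrp1 fell. Sfrp1, which binds Wnt ligands (chromosome 8, 23411383 to 23449632, plus strand), was at 4.55, 3.66 and 4.61 FPKM across the mock brains, against 1.98, 2.00 and 2.09 FPKM across the irradiated brains. The irradiated libraries lay close together and below each mock library, with a log2 change of -0.91 (SE 0.17, adjusted p = 0.016 by limma). Without mock 1, mock 3 or irradiated 3 the adjusted p was 0.074, 0.060 and 0.056 by limma. The astrocyte markers were mixed. Aqp4 and S100b fell (log2 change -1.03 and -1.33), and Slc1a3, Aldoc, Gja1 and Fgfr3 were lower without being called. Slc1a2, Aldh1l1 and Gfap had changes of 0.43, 0.25 and 0.28 and were not called. The part of the astrocyte and precursor markers in the Sfrp1 and Fzd7 changes was not tested. Sfrp4 was at 1.87, 1.76 and 1.94 FPKM in the 3 mock libraries, compared with 0.774, 1.22 and 1.17 FPKM after irradiation, also without overlap (log2 change -0.61, 95% interval -1.03 to -0.19, adjusted p = 0.082 by limma). Wif1 was at 1.41, 1.34 and 1.46 FPKM without irradiation and 1.26, 0.993 and 0.726 FPKM with it (log2 change -0.36, 95% interval -0.80 to 0.07, adjusted p = 0.27 by limma). Over the 7 tested antagonists the median log2 change was -0.36, while the summed level of all 10 went the other way. It was 61.6, 41.1 and 69.9 FPKM in mock 1, 2 and 3 and 73.1, 97.0 and 108 FPKM in irradiated 1, 2 and 3, without overlap. The sum was not tested.

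Dkk3, a divergent relative of Dkk1 that is abundant in neurons of cortex and hippocampus, went the other way. It was at 35.2, 20.9 and 38.6 FPKM across the mock brains, against 46.1, 75.9 and 89.7 FPKM across the irradiated brains, with the lowest value in mock 2 and the highest in irradiated 3, where telencephalic markers were lowest and highest. The log2 change was 1.14 (95% interval 0.45 to 1.83, adjusted p = 0.056 by limma). It passed without irradiated 1 (1.42, adjusted p = 0.018), without mock 2 and irradiated 1 together (1.15, adjusted p = 0.0097), with library weights (adjusted p = 0.018) and with median centring (adjusted p = 0.037). With mock 2 and irradiated 1 both left out, olfactory bulb markers differed between the groups too. Dkk3 was the largest part of that sum and made up 50.9% to 57.1% of the summed FPKM of the 10 antagonists in mock and 63.1% to 82.9% in irradiated libraries.

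Frzb, also called Sfrp3, was at 8.47, 1.70 and 9.29 FPKM in the 3 mock libraries, compared with 9.55, 5.96 and 9.91 FPKM after irradiation. Mock 2 was far below the other 5 libraries. The log2 change was 0.60 (adjusted p = 0.49 by limma) and -0.09 without mock 2. Sfrp2 and Sfrp5 were lowest in irradiated 3, at 1.32 and 3.00 FPKM against 2.83 to 3.52 and 6.73 to 10.3 FPKM in the other 5 libraries. Their log2 changes were -0.35 (95% interval -0.98 to 0.28) and -0.44 (-1.30 to 0.42). Dkk1, Dkk2 and Dkk4 were below the filter, with the highest value 0.0650 FPKM for Dkk1 and 0.436 FPKM for Dkk2, both in irradiated 2, and Dkk4 was listed at 0 in all 6 libraries.

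**Figure D4:**
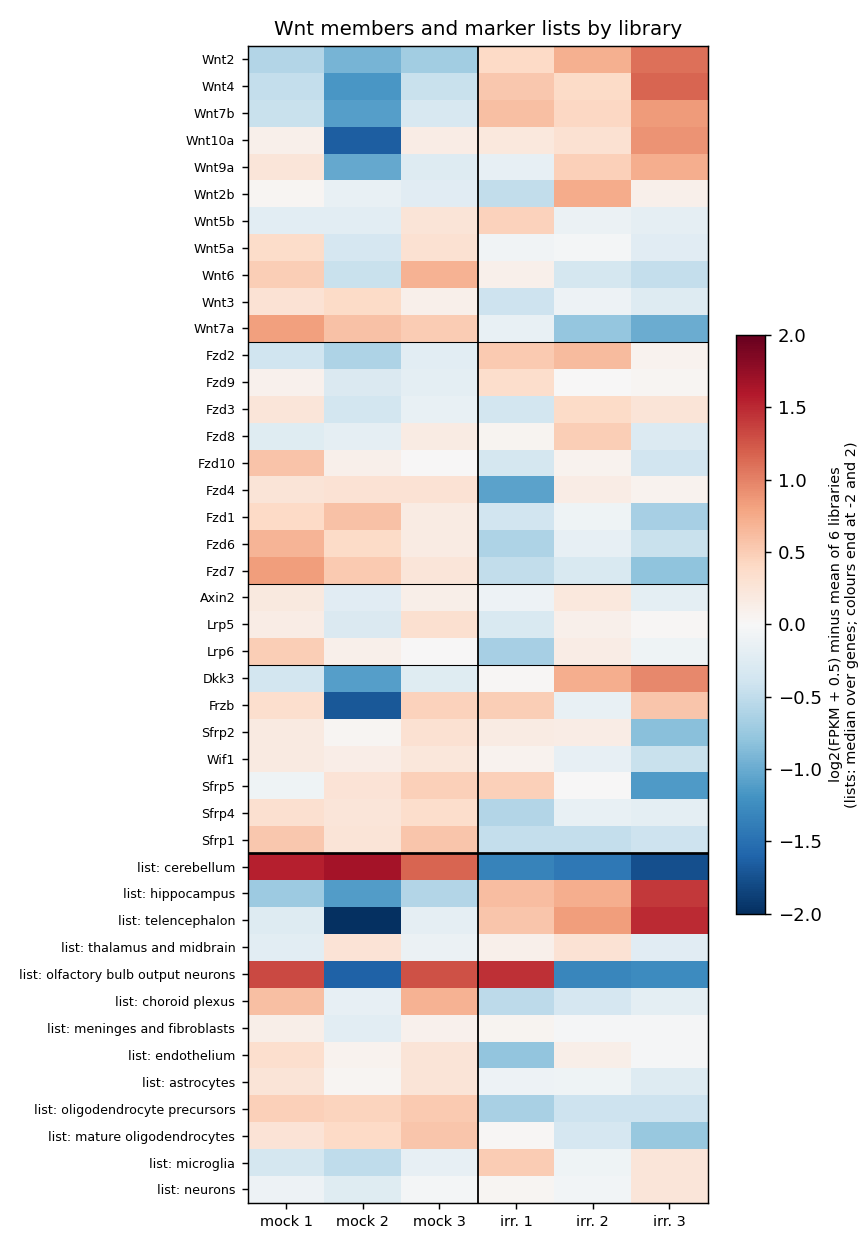
Each row above the thick line is 1 of the 30 tested genes, grouped by role, and each row below it 1 marker list, with the 6 libraries as columns. Colour gives log2(FPKM + 0.5) minus the mean of the 6 libraries (for lists the median over genes, with colours ending at -2 and 2). Wnt10a, Frzb and Dkk3 are lowest in mock 2, as is the telencephalon list at -2.19, and Fzd4 is lowest in irradiated 1, as is the endothelium list at -0.78.

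Axin2, a target of beta-catenin that feeds back on the pathway and is widely used as its readout, was at 5.62, 4.11 and 5.32 FPKM without irradiation and 4.49, 5.71 and 4.21 FPKM with it. The groups overlapped throughout. Its log2 change was -0.06 (SE 0.19, 95% interval -0.49 to 0.37, adjusted p = 0.87 by limma), and it was not called in any of 16 alternatives, with values from -0.18 to 0.05. A gene on the opposite strand shares exon sequence with Axin2 in the annotation, as one does for Fzd5, Fzd6, Sfrp2, Wnt5a and Wnt11. Of 27 genes listed as targets of the pathway, 4 were also among the 42 (Axin2, Dkk1, Dkk4 and Wif1). Of the 27, 22 were tested, and 1 rose and 0 fell by limma. That is 4.55% against 7.72% of all tested genes, and the median log2 change was -0.10. An unadjusted limma p under 0.05 was met by 4 higher and 4 lower targets, and by 1705 higher and 2033 lower of all 14585 tested genes. The 1 target that rose was Lef1, described below. Lef1, Tcf7, Nkd1, Nkd2, Lgr5, Znrf3, Rnf43, Notum and Apcdd1 are also in the list of 72 other pathway genes, so Lef1 is counted in both lists.

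Of 72 other genes of the pathway, 69 were tested, and 6 rose and 1 fell, which is 10.1% against 7.72% of all tested genes. Their median log2 change was -0.08. Rspo1 and Rspo2, secreted R-spondins that raise Wnt signals through Lgr receptors, both rose. Rspo1 was at 1.48, 1.01 and 1.62 FPKM across the mock brains, against 3.16, 3.84 and 2.47 FPKM across the irradiated brains (log2 change 0.97, SE 0.21, adjusted p = 0.032 by limma). Rspo2 was at 2.15, 1.00 and 2.11 FPKM in the 3 mock libraries, compared with 3.63, 3.98 and 7.65 FPKM after irradiation (log2 change 1.29, SE 0.32, adjusted p = 0.046 by limma). The receptors Lgr4, Lgr5 and Lgr6 had log2 changes of -0.43, -1.30 and -1.02 and were not called (adjusted p = 0.19, 0.099 and 0.19 by limma). Among the 8 tested genes of this axis, an unadjusted limma p under 0.05 was met by 2 higher and 3 lower genes. Over all 14585 tested genes it was met by 1705 higher and 2033 lower genes. Gpc4, a heparan sulfate proteoglycan of the cell surface that can hold Wnt ligands, had the smallest p of the 7 called genes. Its values were 2.68, 1.28 and 2.68 FPKM without irradiation and 6.58, 7.51 and 11 FPKM with it (log2 change 1.73, SE 0.28, adjusted p = 0.0098 by limma). Gpc4 passed in all 16 alternatives.

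Tcf7l2 and Lef1, DNA-binding partners of beta-catenin, rose as well. Tcf7l2 was at 0.945, 5.00 and 0.790 FPKM across the mock brains, against 11.2, 14.8 and 6.45 FPKM across the irradiated brains, a log2 change of 2.31 (SE 0.53, adjusted p = 0.038 by limma). Mock 2 stood above the other mock libraries. Lef1 was at 1.49, 1.34 and 1.20 FPKM in the 3 mock libraries, compared with 3.01, 4.58 and 2.18 FPKM after irradiation, a log2 change of 0.98 (SE 0.24, adjusted p = 0.046 by limma). Both genes also mark thalamus and midbrain neurons in the adult brain. The list of 10 thalamus and midbrain markers, which holds both, overlapped between the groups, with 3 members higher and 1 lower. Prickle2, of the planar polarity branch, rose with a log2 change of 1.15 (SE 0.28, adjusted p = 0.043 by limma), and Tle2, a corepressor that binds TCF factors, fell with one of -0.96 (SE 0.21, adjusted p = 0.031 by limma).

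Each of these genes other than Gpc4 was lost when some single libraries were left out. Lef1 did not pass without mock 1, 2 or 3 or irradiated 1 or 2 (largest adjusted p = 0.12), Tcf7l2 without mock 1 or 3 or any irradiated library (0.12), and Rspo1 and Rspo2 without any mock library or irradiated 2 or 3 (0.10 and 0.14). Prickle2 did not pass without any mock library or irradiated 2 or 3 (0.15), and Tle2 without mock 1, mock 3 or irradiated 3 (0.11). The cytoplasmic part of the pathway had 19 genes, among them the Dvl, Axin1, Apc, Gsk3 and casein kinase genes. They had 0 calls by limma, against 7.72% of all tested genes, and a median log2 change of -0.06. An unadjusted limma p under 0.05 was met by 2 higher and 3 lower of them, against 1705 and 2033 of all 14585 tested genes. Reck and Adgra2, the Wnt7 coreceptor pair of brain endothelium, are named here after their values were seen. Reck had a log2 change of -0.54 (95% interval -1.31 to 0.22, adjusted p = 0.34 by limma), with 0.627 FPKM in irradiated 1 and 2.05 to 2.85 FPKM in the other libraries. Adgra2 had one of -0.16 (95% interval -0.60 to 0.27, adjusted p = 0.62 by limma).

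**Figure D5:**
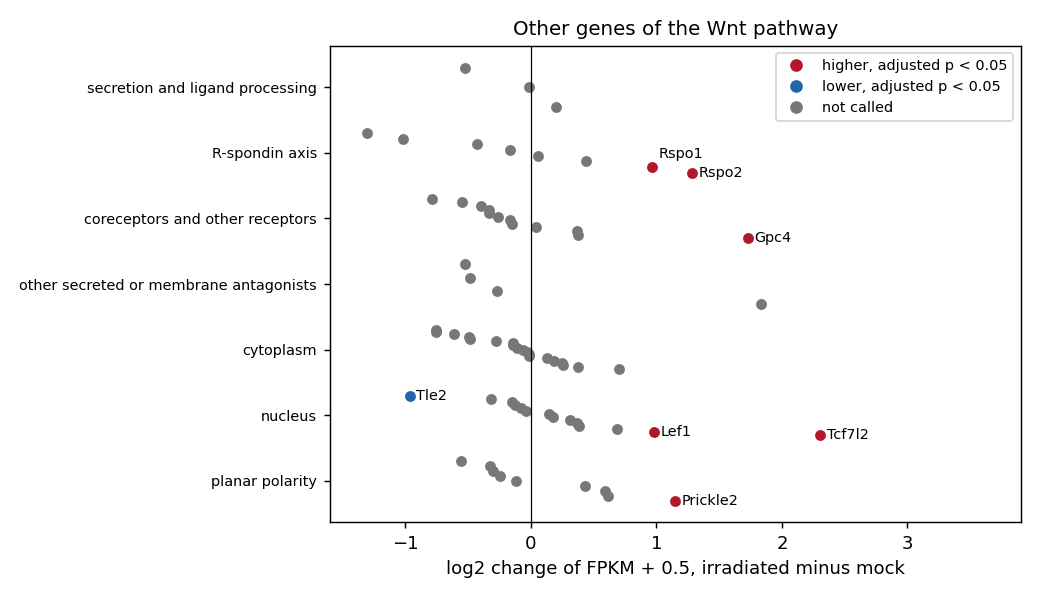
The log2 change of FPKM + 0.5, irradiated minus mock, on the x axis for the 69 tested other genes of the pathway, in rows by role. Each point is 1 gene; red marks the 6 that rose and blue Tle2, which fell, and the 19 cytoplasmic genes are all grey.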

How the data were processed

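RNA was measured in 3 mock and 3 irradiated brains. Per the labels' protocols, stranded libraries were made from 2 µg of total RNA after removal of ribosomal RNA and read as single ends of 75 nt. The authors deposited FPKM per gene and library in 1 table. The submitters' processing notes name TopHat, Cufflinks, Cuffdiff and mm10, with no version or role, and the annotation and the scaling total are not stated. After 1 leftover header line was dropped, 23057 genes remained. No ratio between libraries was shared by more than 4.51% of 133 genes under 0.05 FPKM, so depth could not be recovered and is unknown beyond the labels' read number.

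Genes averaging 0.5 FPKM or more were tested by limma 3.58.1 (R 4.3.3), two-sided, with the group as sole term and a trended variance, on log2(FPKM + 0.5) with Benjamini-Hochberg adjustment over 14585 genes. No count model fits FPKM, and the log2(FPKM + 0.5) scale understates changes of low genes. An exact permutation test of 3 against 3 cannot go below 0.1. The fit was tested on simulated data. Intervals are 95% intervals from limma. Genes and lists were chosen with earlier results of these data known. All 42 genes are accounted for, with values in full for those called, those whose groups do not overlap, and Axin2, Lrp5, Lrp6, Wnt7a and Wnt7b, and called genes of the other lists are named. Alternatives were pseudocounts of 0.1 and 1, a filter of 1 FPKM or none, centring on the median, quantile normalization, a robust prior variance, weights per library, a block on replicate number, and leaving out libraries. Coordinates and promoters come from RefSeq on GRCm38.p6, the assembly of mm10, and transcript lengths from GENCODE, for 96.3% of tested genes.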

Additional observations from a re-analysis of the deposited data

How the results depend on the processing

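The 7 called genes of the 42 and the 7 called among the other pathway genes kept their direction in all 16 alternatives, or for Wnt2 in the 15 in which it was tested. For the 42 genes, leaving out 1 library gave 1 to 4 higher and 0 to 4 lower, and library weights gave 5 lower. Over all genes, leaving out 1 library gave 147 to 673 higher and 254 to 695 lower, library weights gave 863 and 976, and the replicate block gave 394 lower. For the other pathway genes, leaving out 1 library gave 1 to 5 higher and 0 to 4 lower. No filter gave 1 higher. The count of lower genes there was 2 with quantile normalization, 6 with library weights, 0 with the replicate block and 3 without mock 2 and irradiated 1. For targets, leaving out 1 library gave 0 to 1 higher and 0 to 2 lower. The count of higher targets was 0 with no filter, the replicate block, or mock 2 and irradiated 1 left out, 3 with median centring, 2 with quantile normalization and 3 with library weights. The count of lower targets was 1 with quantile normalization, 3 with library weights and 2 with mock 2 and irradiated 1 left out. Causes were not tested.

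With the replicate block, 3 of the 42 genes were higher and 3 lower, and Fzd2 was the call lost. Same-numbered libraries did not deviate together (correlations -0.33, 0.19 and 0.20), so the numbers are not known to pair the mice. Genes that were not called changed sign in some settings. Leaving out 1 library gave log2 changes of -0.18 to 0.024 for Axin2, -0.094 to 0.98 for Frzb, -0.028 to 0.36 for Fzd8 and -0.30 to 0.0097 for Lrp5. It gave -0.79 to 0.021 for Sfrp5, -0.079 to 0.54 for Wnt2b and -0.092 to 0.27 for Wnt5b. Quantile normalization gave 0.053 for Axin2 and 0.0056 for Lrp5, library weights gave -0.018 for Wnt5b, and leaving out mock 2 and irradiated 1 gave -0.19 for Frzb and -0.17 for Wnt5b. With median centring the all-gene median moved from -0.02 to 0.02.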

Other observations

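Several ligand genes lie next to each other in the genome, and their values are given side by side. Wnt6 and Wnt10a lie 6696 bases apart on chromosome 1 (74754342 to 74804176, GRCm38.p6) and had log2 changes of -0.49 and 0.94. Wnt1 and Wnt10b lie 11650 bases apart on chromosome 15. In mock 2 both Wnt10a and Wnt10b were low, at 0.657 and 0.0577 FPKM against 3.39 to 3.50 and 0.456 to 0.488 FPKM in the other mock libraries. Wnt1 was at 0.0317 FPKM in mock 2, also its lowest value. Wnt3 and Wnt9b have overlapping spans on chromosome 11, and Wnt3 had a log2 change of -0.52 while Wnt9b was at 0.250 to 0.377 FPKM in mock and 0.212 to 0.395 FPKM in irradiated libraries.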
